A study of Mus musculus with 18 samples.

Results

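The genes described here are 42 interferon-stimulated genes, chosen by symbol as known targets of interferon signalling, and all 42 were found among the 51290 genes of the table of estimated counts. Interferons are secreted proteins that bind receptors on nearby cells and act through Jak kinases and Stat transcription factors. Type I interferons act largely through a complex with Stat2 and Irf9 that binds the interferon-stimulated response element, and interferon gamma acts through the gamma-activated site. The induced genes encode nucleic acid sensors, factors that block viral entry, translation and replication, and GTPases that attack vacuoles of intracellular microbes, and in tumours they are known as a readout of interferon exposure of tumour and immune cells alike.

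RNA was sequenced from 3 groups of 6 mouse tissue samples. Malignant peripheral nerve sheath tumor (MPNST), a sarcoma of the nerve sheath, came from 6 PostnCre+ mice that carried Arf flox/flox besides Nf1 flox/flox. Plexiform neurofibroma, a benign nerve sheath tumour, was trigeminal nerve of Nf1 flox/flox PostnCre+ mice. Normal nerve was trigeminal nerve of Nf1 flox/flox PostnCre- mice. All 3 groups thus carry floxed Nf1, and the Postn promoter, active in the Schwann cell lineage and in other cells, drives the Cre. The labels give no age, sex or strain, no body site for the MPNST, and say that the nerve and neurofibroma samples belong to another series, so series and group cannot be told apart in any comparison with MPNST. Nothing in the labels says that the nerve or the neurofibroma samples are 1 mouse each, so p-values there measure the spread between samples.

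The libraries held 13886399 to 23652959 counts in MPNST, 15307987 to 20056513 in neurofibroma and 14303986 to 20335697 in nerve. Levels are given as CPM, counts scaled to a common library total. Nf1 ran at 28.1 to 123 CPM in MPNST, 66.7 to 91.3 CPM in neurofibroma and 82.4 to 161 CPM in nerve, and Cdkn2a, which holds Arf, at 0.314 to 692 CPM, 3.54 to 8.58 CPM and 0.28 to 3.01 CPM over the same groups. Counts summed over a whole gene do not isolate the floxed exons and check neither deletion. Schwann cell markers summed to 5938 to 10585 CPM in neurofibroma, 2428 to 6094 CPM in nerve and 40.5 to 1034 CPM in MPNST. Sensory neuron markers summed to 3805 to 5398 CPM in neurofibroma and 3309 to 5778 CPM in nerve. In MPNST they summed to 1.61 to 1914 CPM, highest in MPNST 6, and Scn10a, one of them, reached at most 1.14 CPM. Every comparison with MPNST also spans this difference, whose part in the levels was not tested. Among the MPNST, library 2 stood apart with salivary gland markers at 374534 CPM, and its normalisation factor was 0.436, against 0.934 or more in the other 17 libraries. MPNST 3 held skeletal muscle markers at 30275 CPM, and MPNST 6 held sympathoadrenal markers at 2743 CPM and pancreatic acinar markers at 2098 CPM. Skeletal muscle markers also ran at 1.56 to 1166 CPM in neurofibroma, highest in neurofibroma 1, and 1.82 to 295 CPM in nerve, highest in nerve 3. Nerve 6 held the highest central glia markers in nerve, at 580 CPM, and the highest sympathoadrenal markers there, at 353 CPM. Whether such tissue shifted the levels in neurofibroma or nerve was not tested. Adipocyte markers (3 genes) summed to 704 and 538 CPM in MPNST 1 and 5, against at most 20.3 CPM in the other MPNST, to 366 CPM in neurofibroma 1, against at most 1.96 CPM in the other neurofibromas, and to at most 1.25 CPM in nerve. The counts are therefore also given without MPNST 2, 3 and 6. A setting without MPNST 1 and 5 was chosen after seeing the data. In bulk tissue, fewer cells of a type and less RNA per cell cannot be told apart.

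Promoter sequences of 7 of these genes are shown because they carry the response element that the group is named for and stand for the classes that moved differently in these samples (IFIT, ISG15, OAS and GTPase genes). The sequences are from RefSeq (GRCm38.p6), which lists promoters of 300 bases for 32 of the 42 genes. Each is part of the 250 bases before the annotated start, read 5′ to 3′ on the gene's strand with 30 bases or fewer on either side of the matches, and capitals mark the matches, on either strand, to the core of the response element, 2 copies of GAAA with any 2 bases between them.
Ifit1, chr19:34640755-34640843, plus strand: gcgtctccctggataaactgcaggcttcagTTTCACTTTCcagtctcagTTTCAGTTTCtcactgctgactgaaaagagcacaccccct
Ifit3, chr19:34583343-34583446, plus strand: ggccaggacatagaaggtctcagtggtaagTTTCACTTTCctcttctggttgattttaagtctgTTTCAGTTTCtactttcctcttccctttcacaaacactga
Ifit3b, chr19:34607739-34607842, plus strand: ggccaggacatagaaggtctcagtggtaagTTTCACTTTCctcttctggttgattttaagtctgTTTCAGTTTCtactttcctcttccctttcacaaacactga
Isg15, chr4:156200845-156200926, minus strand: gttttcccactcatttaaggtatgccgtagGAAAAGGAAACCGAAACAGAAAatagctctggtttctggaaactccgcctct
Oas1a, chr5:120907526-120907575, minus strand: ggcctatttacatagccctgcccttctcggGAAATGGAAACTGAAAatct
Irgm1, chr11:48871421-48871480, minus strand: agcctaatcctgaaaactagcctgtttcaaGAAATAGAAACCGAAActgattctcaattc
Gbp2, chr3:142620574-142620643, plus strand: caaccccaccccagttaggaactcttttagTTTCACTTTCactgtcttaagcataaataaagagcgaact

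Ifit1 and the near-identical copies Ifit3 and Ifit3b each hold 2 separate matches, and the shown stretch of 104 bases is the same in both copies. Isg15 holds 3 overlapping matches, and Oas1a and Irgm1 hold 2 each. Over the promoters of 300 bases, 17 of the 32 listed genes (53.1%) held at least 1 match, against 3.99% of all 27025 genes in the RefSeq table. By class this was 3 of 4 listed IFIT genes, 5 of 6 listed GTPases and 1 of 5 transcription factors. The gamma-activated site motif TTCNNNGAA, which reads the same on both strands and was counted apart from the first motif, stood in 12 of the 32 genes (37.5%), against 9.55% of all genes. No match was found for either motif in 9 genes, among them Irf7, Irf9, Oasl2 and Ifi44, and a match is a description of letters in this window and not of a bound site.

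In neurofibroma, 18 of the 41 interferon-stimulated genes tested rose over nerve and 0 fell, and Ifitm3, Ifi27l2a, Ifit1, Parp14 and Rtp4 had the smallest p. In MPNST, 12 of 42 rose over neurofibroma and 24 of 42 over nerve, and 0 fell in either comparison. A gene is said to rise or fall where edgeR's quasi-likelihood test, adjusted over all genes tested by Benjamini-Hochberg, gave an adjusted p under 0.05. The share of neurofibroma calls, 43.9%, stood beside 7.94% called higher among all 16464 genes tested. Against neurofibroma, the share in MPNST was 28.6%, near the 25.3% of all 16537 genes, so the number of calls there does not set these genes apart. Against nerve, the share in MPNST was 57.1%, beside 27.6% of all 16384 genes. The median log2 change was 0.91 in neurofibroma over nerve (all genes -0.02), 1.0 in MPNST over neurofibroma (all genes 0.22) and 1.86 in MPNST over nerve (all genes 0.22).

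The groups also differed in how far they overlapped, by CPM here and wherever single libraries are placed; on the scale of the fits, which divides by the normalisation factor, MPNST 2 lies higher. For 10 of the 41 genes, every neurofibroma library lay above every nerve library, which held for 3.91% of all genes tested. No interferon-stimulated gene had all 6 MPNST above all 6 neurofibroma libraries or above all 6 nerve libraries, which held for 2.26% and 2.88% of all genes. With shares that small among all genes, 0 of 42 does not set these genes apart. The number of neurofibroma calls was 10 without neurofibroma 4 (618 of all 16634 genes tested) and 11 without neurofibroma 6 (774 of 16674). It was 28 without nerve 3 (1024 of 16669) and 17 without nerve 6 and neurofibroma 1 together (1757 of 16455). The 12 calls of MPNST over neurofibroma became 23 without MPNST 6 (5110 of all 16790 genes) and 23 without MPNST 2 and 6 (5306 of 17280). Without MPNST 2, 3 and 6 they became 25 (5722 of 17900), and those over nerve became 37 (5620 of 17819). Without MPNST 1 and 5, a setting chosen after seeing the data, 3 genes were called higher and 8 lower in MPNST over neurofibroma (3407 and 2433 of all 17105 genes). In that setting, 13 were called higher and 0 lower over nerve (3458 and 2625 of all 17059 genes). The 3 higher genes were Oas2, Trim25 and Samhd1, and the 8 lower ones included all 4 IFIT genes. Fitting all 18 libraries together, with 1 spread for the 3 groups, edgeR called 0 of 42 in neurofibroma over nerve, with 14 at an unadjusted p under 0.05 and 2 calls among all 17316 genes.

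**Figure D1:**
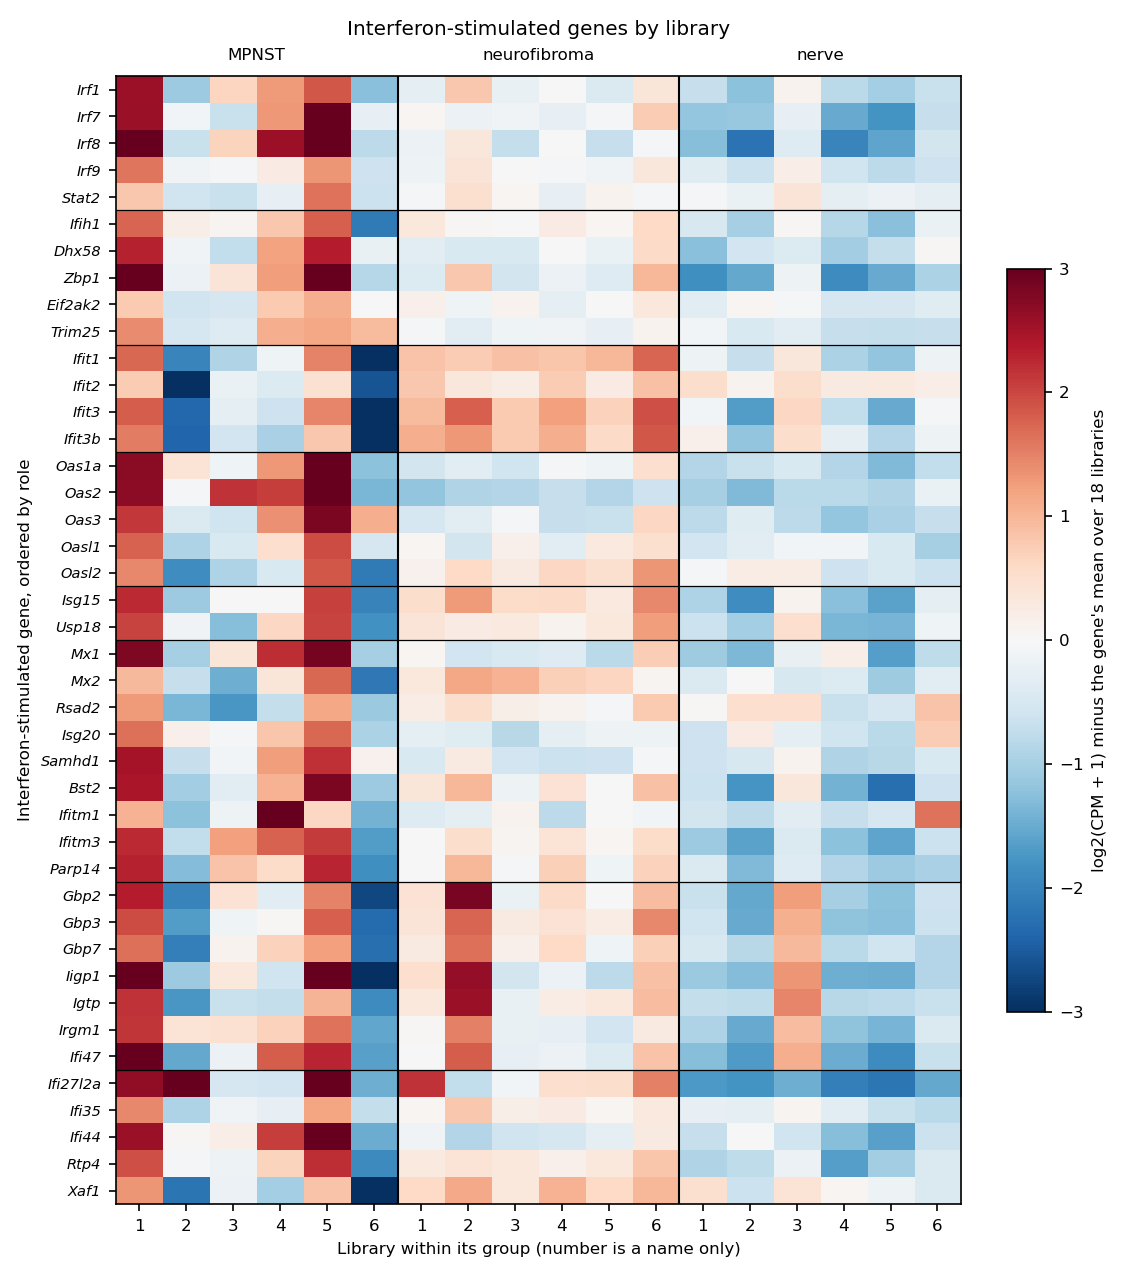
Level of each of the 42 interferon-stimulated genes (rows, ordered by role) in each of the 18 libraries (columns: MPNST, neurofibroma, nerve), as log2(CPM + 1) minus the gene's mean over the 18 libraries, on a colour scale cut at 3 on either side. MPNST 1 and 5 are dark red in most rows and MPNST 6 blue, while neurofibroma libraries are mostly paler red and nerve libraries mostly blue.

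**Figure D2:**
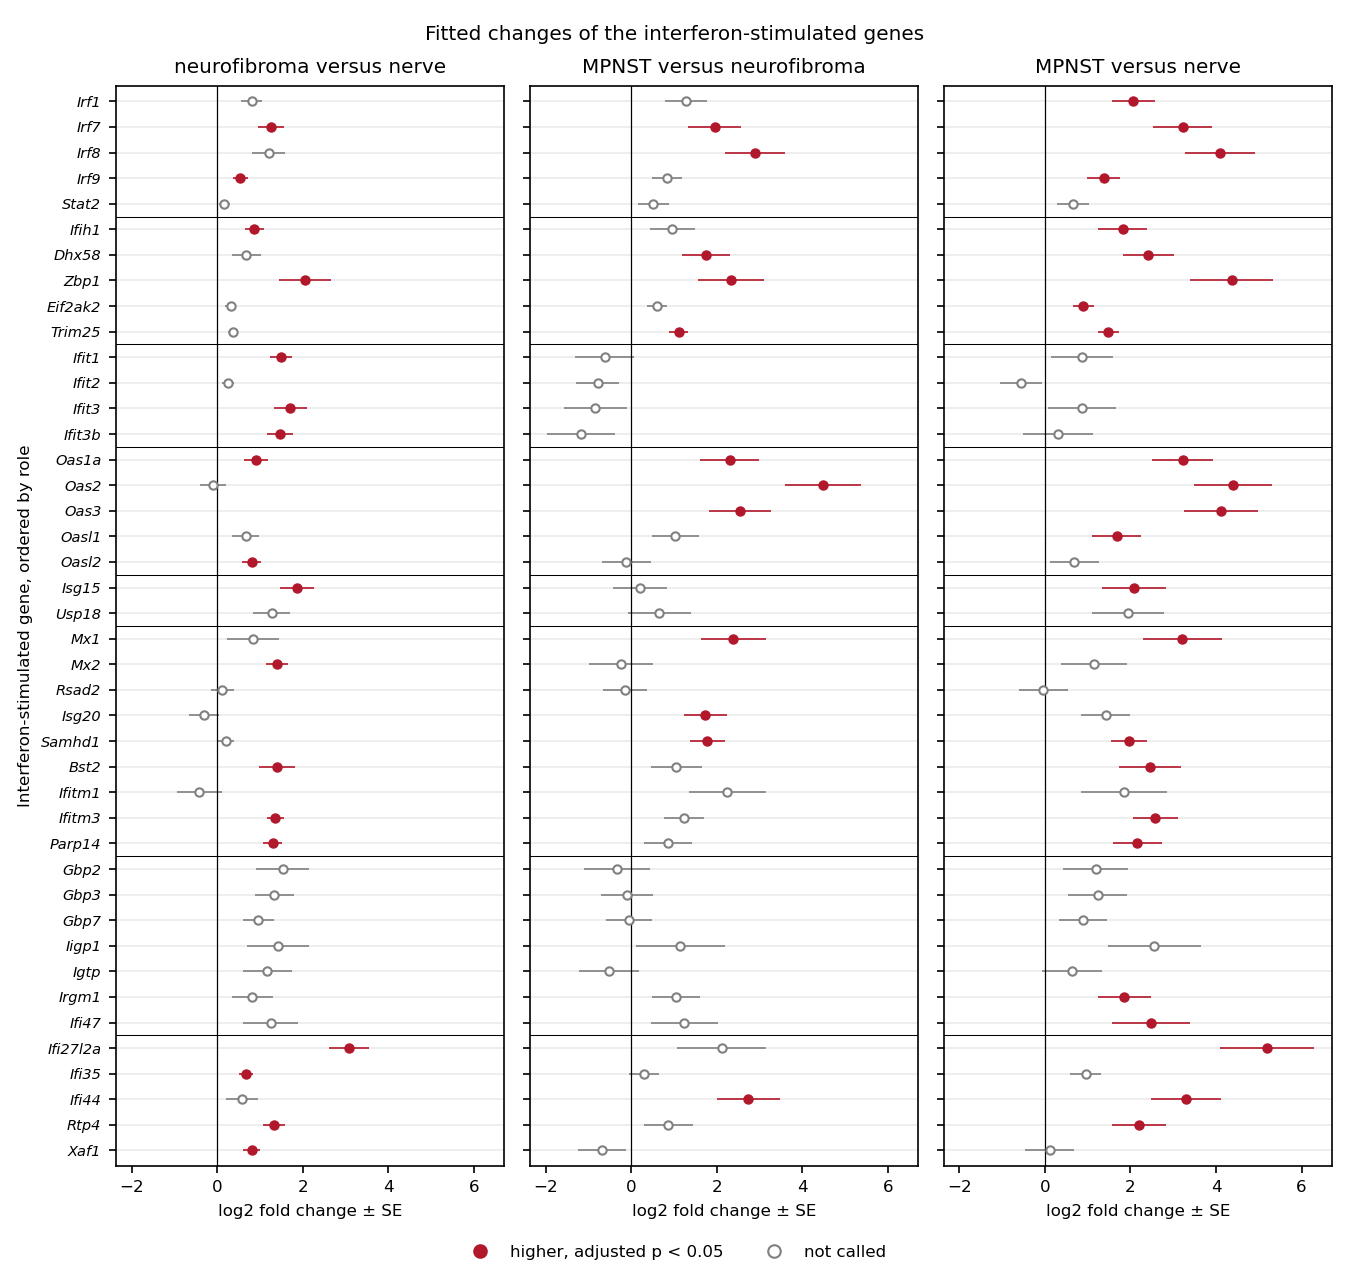
Fitted log2 fold change (points, with SE bars) of each gene in neurofibroma versus nerve, MPNST versus neurofibroma and MPNST versus nerve. Filled red points mark adjusted p under 0.05; they number 18, 12 and 24, and the SE bars in both MPNST panels are wider than in the neurofibroma panel.

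The transcription factors rose in 2 of 5 genes in neurofibroma over nerve, in 2 of 5 in MPNST over neurofibroma and in 4 of 5 in MPNST over nerve. These shares were 40.0%, 40.0% and 80.0%, beside 7.94%, 25.3% and 27.6% of all genes tested. Irf7, which drives transcription of interferon alpha genes, ran at 5.27, 15.9 and 105 CPM in MPNST (lowest, median and highest library, as in all such sentences here), 7.37, 8.37 and 15.9 CPM in neurofibroma and 1.89, 3.48 and 7.36 CPM in nerve. All 6 neurofibroma libraries lay above the highest nerve library (7.37 CPM in neurofibroma 4, against 7.36 CPM in nerve 3), while MPNST 3 lay below every neurofibroma library. The log2 change of Irf7 was 1.26 (SE 0.30, adjusted p = 0.0189) in neurofibroma over nerve, 1.96 (SE 0.62, adjusted p = 0.0236) in MPNST over neurofibroma and 3.22 (SE 0.69, adjusted p = 0.00287) in MPNST over nerve. Its call over neurofibroma was lost without MPNST 5 or neurofibroma 3, 4 or 5 (adjusted p up to 0.0601). Irf8, which directs macrophage and dendritic cell development, ran at 4.98, 37.9 and 141 CPM in MPNST, 5.32, 8.60 and 12 CPM in neurofibroma and 1.23, 2.85 and 6.94 CPM in nerve. MPNST 1, 4 and 5, at 141, 60.5 and 132 CPM, lay far above neurofibroma, MPNST 3 lay just above it at 15.3 CPM, and MPNST 1, 4 and 5 also held the highest macrophage marker levels. Irf8 rose by a log2 change of 2.89 (SE 0.70, adjusted p = 0.00682) in MPNST over neurofibroma and 4.09 (SE 0.82, adjusted p = 0.00209) in MPNST over nerve. Irf9, the DNA-binding subunit of the type I complex, ran at 15.3, 25.9 and 74.7 CPM in MPNST, 21.6, 23.5 and 31.7 CPM in neurofibroma and 13.6, 15.4 and 27.8 CPM in nerve. Its small rise in neurofibroma (log2 change 0.54, SE 0.17, adjusted p = 0.0478) was lost in 11 of the 12 fits that left out 1 library (adjusted p up to 0.115) and held only without nerve 3, the 1 nerve library that overlapped neurofibroma. Stat2, its partner, was called in no comparison (log2 changes 0.16 in neurofibroma over nerve, 0.52 in MPNST over neurofibroma and 0.66 in MPNST over nerve), and Irf1, an interferon gamma target, was called in MPNST over nerve (2.07, SE 0.51, adjusted p = 0.00658).

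The nucleic acid sensors and their regulators rose in 2 of 5 genes in neurofibroma over nerve, 3 of 5 in MPNST over neurofibroma and 5 of 5 in MPNST over nerve. These shares were 40.0%, 60.0% and 100%, beside 7.94%, 25.3% and 27.6% of all genes tested. Ifih1, a sensor of long double-stranded RNA, ran at 1.99, 17.7 and 44.5 CPM in MPNST, 12.2, 13.7 and 18.7 CPM in neurofibroma and 4.47, 7.32 and 12.3 CPM in nerve. Neurofibroma 3, at 12.2 CPM, was the 1 neurofibroma library under the highest nerve library. The log2 change was 0.86 (SE 0.22, adjusted p = 0.025) in neurofibroma over nerve, and that call was lost without neurofibroma 4 or 6 or nerve 4 (adjusted p up to 0.0594). Over nerve, Ifih1 rose in MPNST by 1.82 (SE 0.57, adjusted p = 0.0219), a call lost without MPNST 5 or nerve 5 (adjusted p up to 0.0525). Zbp1, a sensor of left-handed nucleic acids that can trigger cell death, ran at 1.47, 7.23 and 52.3 CPM in MPNST, 2.05, 2.68 and 7.84 CPM in neurofibroma and 0.203, 0.55 and 3.03 CPM in nerve. Neurofibroma 2 and 6, at 6.75 and 7.84 CPM, stood above the other neurofibroma libraries, and nerve 3 was the highest nerve library. Zbp1 rose by a log2 change of 2.04 (SE 0.61, adjusted p = 0.0435) in neurofibroma over nerve, which was lost in 8 of 12 fits without 1 library (adjusted p up to 0.0958) and held without neurofibroma 3 or 5 or nerve 3 or 6. In MPNST over neurofibroma it rose by 2.33 (SE 0.77, adjusted p = 0.0295), a call lost without MPNST 1 or 5 or neurofibroma 1, 3, 4 or 5 (adjusted p up to 0.0712). Its rise in MPNST over nerve, 4.37 (SE 0.97, adjusted p = 0.00367), was kept in each of the 12 fits without 1 library. Trim25, a ubiquitin ligase that acts in RNA sensing, ran at 19.1, 56.4 and 74.6 CPM in MPNST, 21.6, 25.3 and 29.4 CPM in neurofibroma and 16.2, 18.1 and 25.8 CPM in nerve. Unlike most of these genes it was high in MPNST 6, at 53.4 CPM, and only MPNST 2 and 3 lay below the highest neurofibroma library. After scaling by the normalisation factor, MPNST 2 lay above all neurofibroma libraries (43.7 CPM, against at most 28.2 CPM). The rise of Trim25 over neurofibroma had a log2 change of 1.11 (SE 0.22, adjusted p = 0.00209), and over nerve 1.48 (SE 0.24, adjusted p = 0.000561). Both calls were kept in each of the 12 fits that left out 1 library. Dhx58, a regulator of the RNA helicase sensors, ran at 1.97, 7.06 and 24.3 CPM in MPNST, 2.60, 3.13 and 6.40 CPM in neurofibroma and 1.07, 2.17 and 4.06 CPM in nerve. MPNST 1, 4 and 5 were the libraries above every neurofibroma library. After scaling by the normalisation factor, MPNST 2 was above them too (8.24 CPM, against at most 6.14 CPM). The call of Dhx58 over neurofibroma (1.75, SE 0.55, adjusted p = 0.0234) was lost without MPNST 1 or 5 or neurofibroma 1, 2, 3 or 5 (adjusted p up to 0.053).

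The IFIT family, which binds foreign RNA and blocks its translation, rose in neurofibroma and in neither MPNST comparison. In neurofibroma over nerve 3 of 4 genes rose (75.0%, beside 7.94% of all genes tested). This held in each of the 12 fits that left out 1 library, and the median log2 change was 1.48. Ifit1 ran at 0.786, 14.3 and 68.5 CPM in MPNST, 34.8, 37.5 and 69.8 CPM in neurofibroma and 8.25, 14.9 and 25.6 CPM in nerve. All neurofibroma libraries lay above all nerve libraries, and neurofibroma 6 stood above its group. Ifit1 rose by a log2 change of 1.49 (SE 0.26, adjusted p = 0.00507) in neurofibroma over nerve. Ifit3b ran at 0.105, 5.38 and 30 CPM in MPNST, 15.1, 21.8 and 38.0 CPM in neurofibroma and 3.74, 8.21 and 14.6 CPM in nerve, again without overlap between neurofibroma and nerve, and its log2 change there was 1.47 (SE 0.31, adjusted p = 0.0112). Ifit3 changed by 1.71 (SE 0.38, adjusted p = 0.0143), but because Ifit3 and Ifit3b are near-identical, how their reads were shared between them is uncertain. Ifit2 was not called (0.24, SE 0.14), at 34.3 to 54.7 CPM in neurofibroma and 31.8 to 42.9 CPM in nerve. In MPNST over neurofibroma, 0 of 4 IFIT genes were called, with log2 changes between -1.17 and -0.62 and a median of -0.81. Ifit3, the most abundant of the 4, ran at 0.943, 21.0 and 105 CPM in MPNST, 47.7, 63.0 and 113 CPM in neurofibroma and 8.31, 22.1 and 45.2 CPM in nerve. Its log2 change in MPNST was -0.84 over neurofibroma (SE 0.74, adjusted p = 0.375) and 0.87 over nerve (SE 0.79, adjusted p = 0.384). For Ifit1, MPNST 1 and 5 stood at 68.5 and 57.7 CPM, within the neurofibroma range, while MPNST 2, 3, 4 and 6 stood at 4.31, 10.3, 18.2 and 0.786 CPM, below every neurofibroma library.

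The OAS family makes oligoadenylates that activate the nuclease RNase L and so degrade RNA. Of its 5 genes, 3 rose in MPNST over neurofibroma in each of the 12 fits that left out 1 library, and the log2 changes spread between -0.11 for Oasl2 and 4.48 for Oas2. Over nerve, 4 of 5 rose in MPNST, and in neurofibroma 2 of 4 tested. Oas2 ran at 0.629, 17.4 and 107 CPM in MPNST, 0.848, 1.28 and 1.76 CPM in neurofibroma and 0.688, 1.34 and 2.68 CPM in nerve. All MPNST libraries but MPNST 6 lay above every neurofibroma and every nerve library, and MPNST 5 stood far above the rest. Its log2 change was 4.48 (SE 0.89, adjusted p = 0.00218) in MPNST over neurofibroma and 4.39 (SE 0.91, adjusted p = 0.00246) in MPNST over nerve, both kept in each fit without 1 library, and -0.10 (SE 0.30, not called) in neurofibroma over nerve. Oas3 ran at 0.492, 4.31 and 15 CPM in MPNST, 0.385, 0.703 and 2.48 CPM in neurofibroma and 0, 0.301 and 0.738 CPM in nerve, and rose over neurofibroma (2.55, SE 0.72, adjusted p = 0.014) and nerve (4.12, SE 0.86, adjusted p = 0.00257). It was too low to be tested in neurofibroma against nerve, and MPNST 1, 4, 5 and 6 were the libraries above every neurofibroma library. Oas1a ran at 1.10, 8.37 and 41.0 CPM in MPNST, 2.30, 3.22 and 6.08 CPM in neurofibroma and 0.979, 1.83 and 2.61 CPM in nerve. The log2 change of Oas1a was 0.91 (SE 0.28, adjusted p = 0.0455) in neurofibroma over nerve, lost in 8 of 12 fits without 1 library (adjusted p up to 0.109) and held without neurofibroma 1 or 3 or nerve 3 or 6, and 2.31 (SE 0.69, adjusted p = 0.0179) in MPNST over neurofibroma. Mouse Oas1a has several close copies, so the split of reads among them is uncertain. Oasl2, an OAS-like gene, ran at 6.81, 20.1 and 122 CPM in MPNST, 36.0, 48.0 and 83.3 CPM in neurofibroma and 20.6, 27.7 and 38.8 CPM in nerve. It went with the IFIT pattern, with a rise in neurofibroma (0.80, SE 0.22, adjusted p = 0.0299, lost without neurofibroma 2, 4 or 6 or nerve 4 or 5, adjusted p up to 0.0741) and no call over neurofibroma in MPNST (-0.11, SE 0.57). Oasl1 was called in MPNST over nerve alone (1.68, SE 0.57, adjusted p = 0.0292), and lost that call without MPNST 1 or 5 or nerve 1, 2, 5 or 6 (adjusted p up to 0.085).

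Isg15, a ubiquitin-like protein attached to newly made proteins, ran at 1.15, 7.62 and 40.1 CPM in MPNST, 9.57, 11.7 and 22.3 CPM in neurofibroma and 1.38, 3.10 and 8.31 CPM in nerve. All neurofibroma libraries lay above all nerve libraries, MPNST 1 and 5 lay above all neurofibroma libraries and the other 4 MPNST below them. The log2 change was 1.87 (SE 0.40, adjusted p = 0.0124) in neurofibroma over nerve, 0.21 (SE 0.63, not called) in MPNST over neurofibroma and 2.08 (SE 0.74, adjusted p = 0.0357) in MPNST over nerve. The last of these calls was lost without MPNST 1 or 5 or nerve 1, 2, 4 or 5 (adjusted p up to 0.0881). Usp18, the protease that removes Isg15 and damps receptor signalling, was called in no comparison, with log2 changes of 1.27 (SE 0.44), 0.66 (SE 0.73) and 1.94 (SE 0.84) in neurofibroma over nerve, MPNST over neurofibroma and MPNST over nerve.

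Restriction factors, which act on single steps of viral growth, rose in 4 of 9 genes in neurofibroma over nerve, 3 of 9 in MPNST over neurofibroma and 5 of 9 in MPNST over nerve. These shares were 44.4%, 33.3% and 55.6%, beside 7.94%, 25.3% and 27.6% of all genes tested. The share in MPNST over neurofibroma thus lies near that of all genes. Ifitm3, which blocks fusion of viruses in endosomes, ran at 17.8, 171 and 284 CPM in MPNST, 59.1, 70.8 and 87.5 CPM in neurofibroma and 18.6, 26.0 and 43.3 CPM in nerve. No neurofibroma library overlapped nerve, and the log2 change there was 1.35 (SE 0.20, adjusted p = 0.00255). MPNST 1, 3, 4 and 5 lay above every neurofibroma library and MPNST 2 and 6 below every one. After scaling by the normalisation factor, MPNST 2 had 80.4 CPM, within the neurofibroma range of 58.2 to 83.9 CPM, and only MPNST 6 lay below it, at 16.4 CPM. The change of MPNST over neurofibroma, 1.23 (SE 0.47, adjusted p = 0.0523), was not called, while that over nerve was (2.58, SE 0.52, adjusted p = 0.00204). Parp14, an ADP-ribosyltransferase, ran at 8.64, 55.4 and 170.0 CPM in MPNST, 30.6, 43.8 and 68.0 CPM in neurofibroma and 12.7, 17.1 and 25.3 CPM in nerve. It too rose in neurofibroma without overlap (1.29, SE 0.23, adjusted p = 0.00526), as did the dynamin-like Mx2 (1.39, SE 0.26, adjusted p = 0.0071). Samhd1, which degrades deoxynucleotides, ran at 28.3, 80.5 and 265 CPM in MPNST, 29.2, 31.9 and 55.7 CPM in neurofibroma and 24.3, 31.1 and 49.3 CPM in nerve. MPNST 1, 4 and 5, at 265, 111 and 215 CPM, were the libraries above every neurofibroma library. After scaling by the normalisation factor, MPNST 2 was above them too (64.9 CPM, against at most 53.3 CPM). Samhd1 rose over neurofibroma (1.78, SE 0.41, adjusted p = 0.00529) and over nerve (1.97, SE 0.42, adjusted p = 0.00278) but was not called in neurofibroma over nerve (0.19, SE 0.19). Isg20, an RNA exonuclease, ran at 1.15, 5.06 and 12.7 CPM in MPNST, 1.33, 2.48 and 2.74 CPM in neurofibroma and 1.4, 2.10 and 6.09 CPM in nerve. All MPNST but MPNST 6 lay above every neurofibroma library, with a log2 change of 1.73 (SE 0.50, adjusted p = 0.0159), whereas nerve 6, at 6.09 CPM, overlapped MPNST and the change over nerve was not called (1.42, SE 0.57, adjusted p = 0.0591). Mx1, a dynamin-like relative of Mx2, was called in both MPNST comparisons, and over neurofibroma (2.39, SE 0.76, adjusted p = 0.0251) lost its call without MPNST 1 or 5 or neurofibroma 2, 3, 4 or 5 (adjusted p up to 0.0568). Bst2, which tethers budding virus to the cell, rose in neurofibroma (1.39, SE 0.42, adjusted p = 0.0436), was called in all of the fits without neurofibroma 3 or 5 or nerve 3 or 6 and lost in the other 8 (adjusted p up to 0.095), and rose in MPNST over nerve (2.45, SE 0.72). Ifitm1, a relative of Ifitm3, was not called and stood at 52.9 CPM in MPNST 4, against at most 7.02 CPM in the other MPNST. Rsad2, the gene of the antiviral enzyme viperin, was called in none (log2 changes 0.11 in neurofibroma over nerve, -0.15 in MPNST over neurofibroma and -0.04 in MPNST over nerve).

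The 7 interferon-inducible GTPases, which gather on vacuoles that hold microbes and are strong interferon gamma targets, were called in 0 of 7 cases in neurofibroma over nerve although all 7 log2 changes were positive (0.82 to 1.53, median 1.25). The same library stood highest for every one of them in each group: MPNST 1, neurofibroma 2 and nerve 3, while MPNST 6 was the lowest MPNST for all 7. Without nerve 3, all 7 were called higher in neurofibroma (median log2 change 1.96), and no other single library gave any call. Irgm1, a regulator of the family, ran at 6.23, 31.1 and 93.7 CPM in MPNST, 13.4, 19.1 and 59.6 CPM in neurofibroma and 6.54, 9.25 and 39.9 CPM in nerve. Next to neurofibroma 2 at 59.6 CPM, the second highest neurofibroma library had 24.8 CPM, and next to nerve 3 at 39.9 CPM the second highest nerve library had 14.9 CPM. The log2 change of Irgm1 was 0.82 (SE 0.48, adjusted p = 0.258) in neurofibroma over nerve, 1.04 (SE 0.56, adjusted p = 0.15) in MPNST over neurofibroma and 1.86 (SE 0.62, adjusted p = 0.0287) in MPNST over nerve. Ifi47 ran at 2.04, 19.7 and 91.3 CPM in MPNST, 6.07, 7.85 and 32.2 CPM in neurofibroma and 1.54, 2.61 and 19.1 CPM in nerve, with a call in MPNST over nerve only (2.48, SE 0.91, adjusted p = 0.0417). Both of those calls over nerve were lost in 8 of 12 fits without 1 library (adjusted p up to 0.0639 for Irgm1, which held without MPNST 3, 4 or 6 or nerve 3, and up to 0.111 for Ifi47, which held without MPNST 2, 3 or 6 or nerve 3). They were the 2 GTPases of 7 called there (28.6%, near the 27.6% of all genes), and 5 of 7 were called without MPNST 6. Gbp2, whose promoter is shown above, ran at 2.99, 27.5 and 135 CPM in MPNST, 22.2, 36.7 and 191 CPM in neurofibroma and 8.16, 14 and 62.7 CPM in nerve, with neurofibroma 2 again apart from its group. Gbp7, the most abundant of the 7 over all libraries, ran at 6.5, 47.7 and 113 CPM in MPNST, 32.2, 48.4 and 113 CPM in neurofibroma and 18.6, 21.4 and 69.6 CPM in nerve, and its log2 change was 0.96 (SE 0.37, adjusted p = 0.0983) in neurofibroma over nerve and -0.06 (SE 0.54, adjusted p = 0.938) in MPNST over neurofibroma. Gbp genes share sequence with close relatives, so their single values carry that uncertainty.

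The remaining interferon-induced genes rose in 4 of 5 in neurofibroma over nerve, 1 of 5 in MPNST over neurofibroma and 3 of 5 in MPNST over nerve. Ifi27l2a, a small interferon-induced membrane protein, ran at 4.03, 48.4 and 153 CPM in MPNST, 7.39, 19 and 61.4 CPM in neurofibroma and 2.10, 3.13 and 4.04 CPM in nerve. Its rise in neurofibroma, a log2 change of 3.08 (SE 0.47, adjusted p = 0.00273), had the largest size of the 41 genes tested, and all 6 neurofibroma libraries lay above nerve. It was also the gene of this class in which MPNST 2 stood high, at 137 CPM, and the change over neurofibroma was not called (2.12, SE 1.04, adjusted p = 0.118). Over nerve it rose in MPNST by 5.20 (SE 1.10, adjusted p = 0.0027), the largest log2 change of the 42 genes there, kept in each of the 12 fits without 1 library. Rtp4, a chaperone of membrane receptors, ran at 1.47, 10.9 and 42.2 CPM in MPNST, 9.30, 10.5 and 15.5 CPM in neurofibroma and 1.96, 4.25 and 7.24 CPM in nerve. Neurofibroma and nerve did not overlap (1.32, SE 0.25, adjusted p = 0.00705), and MPNST over nerve was also called (2.19, SE 0.63, adjusted p = 0.0141). Ifi44 had the other pattern, at 0.786, 12.4 and 57.1 CPM in MPNST, 1.73, 2.81 and 5.03 CPM in neurofibroma and 0.629, 2.16 and 3.93 CPM in nerve. It was not called in neurofibroma over nerve (0.57, SE 0.38) and rose in MPNST over neurofibroma (2.74, SE 0.74, adjusted p = 0.0117) and over nerve (3.30, SE 0.81, adjusted p = 0.00637). Ifi35 and Xaf1 were called in neurofibroma over nerve only, at 0.67 (SE 0.17) and 0.80 (SE 0.20), and lost the call without neurofibroma 4 (Ifi35), or without neurofibroma 2, 4 or 6 or nerve 5 (Xaf1), with adjusted p up to 0.0536 and 0.0603.

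**Figure D3:**
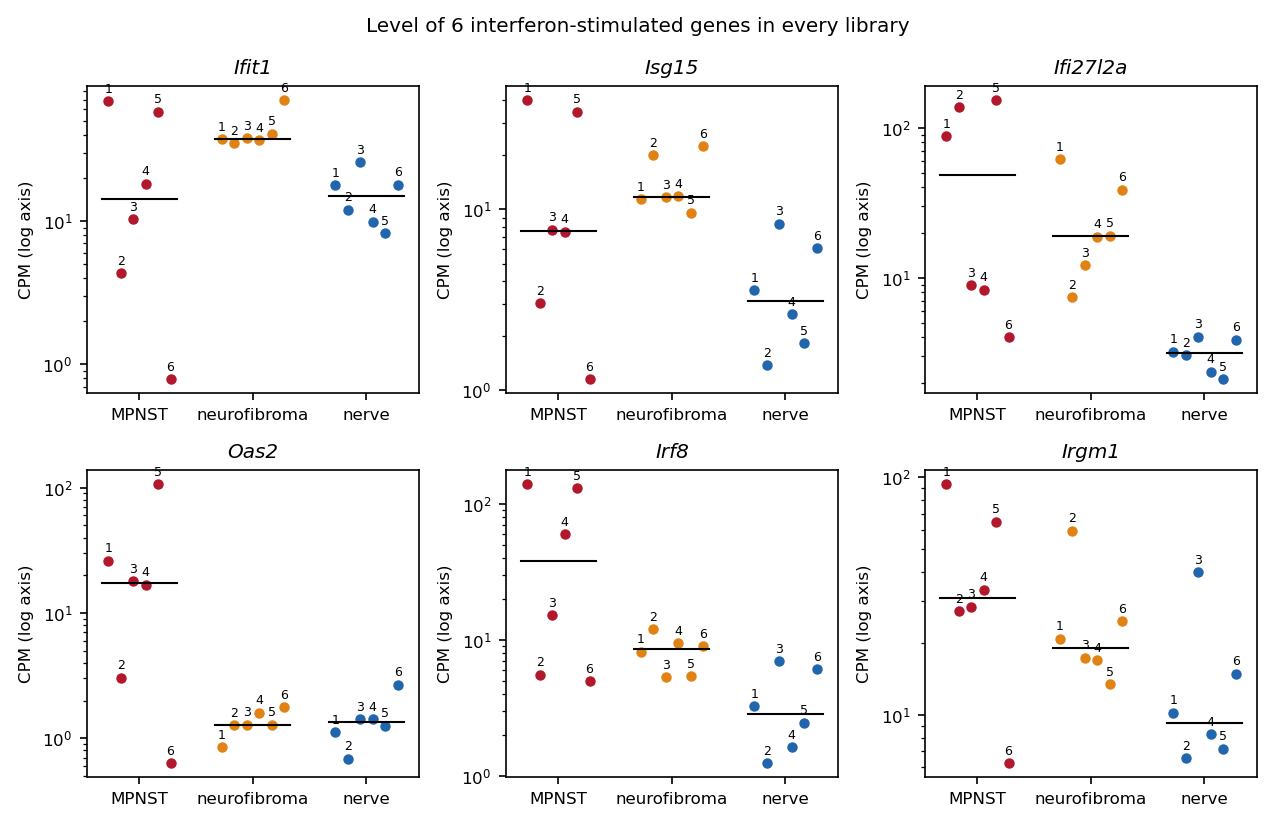
Level of 6 interferon-stimulated genes in every library, in CPM on a log axis; points are libraries with their number, and the line is the group median. Ifit1, Isg15 and Ifi27l2a show neurofibroma above nerve without overlap, Oas2 and Irf8 show MPNST libraries far above both other groups, and Irgm1 shows neurofibroma 2 and nerve 3 apart from their groups.

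Within MPNST, the order of the libraries was much the same from gene to gene. MPNST 1 and 5 were the 2 highest MPNST libraries for 39 of 42 genes (92.9%), which held for 15.3% of all genes tested, for a pair picked after the values were seen. MPNST 6 was the lowest for 31 of 42 (73.8%), against 14.7% of all genes, while MPNST 2 was the lowest for 67.1% of all genes. After scaling by the normalisation factor, MPNST 6 was the lowest for 36 of 42 (85.7%), against 25.5% of all genes, and MPNST 1 and 5 were again the 2 highest for 39 of 42, against 11.9%. MPNST 1 lay above every neurofibroma library for 35 of the 42 genes and MPNST 5 for 34, whereas MPNST 4 lay above for 19 and below for 13. MPNST 6 lay below every neurofibroma library for 35. By CPM, MPNST 2 lay below for 29 genes and above for 3, but after scaling by the normalisation factor it lay below for 13 and above for 16, so its place depends on the scaling. The summed level of the 42 genes was 3277, 501.2, 808.5, 1266, 3088 and 321.4 CPM in MPNST 1 to 6, while neurofibroma ran at 820.2 to 1650.0 CPM and nerve at 419 to 990.8 CPM. The range across MPNST thus spans both other groups.

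Neurofibroma and nerve libraries also had an internal order. Neurofibroma 6 was the highest of its group for 23 of 42 genes, including all 4 IFIT genes, and neurofibroma 2 for 17, including all 7 GTPases. Nerve 3 was the highest nerve library for 28 of 42 genes, including all 7 GTPases and 3 of 4 IFIT genes. Among all genes tested these libraries were the highest for 18%, 22.1% and 17.3%. The plot of class levels shows that nerve 3 lay above most neurofibroma libraries for the transcription factors (mean log2(CPM + 1) of 4.31, against 4.07 to 4.67 in neurofibroma) and above all but neurofibroma 2 for the GTPases (5.45, against 4.09 to 6.41). For the IFIT genes it stayed below all 6 (4.92, against 5.04 to 6.02).

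**Figure D4:**
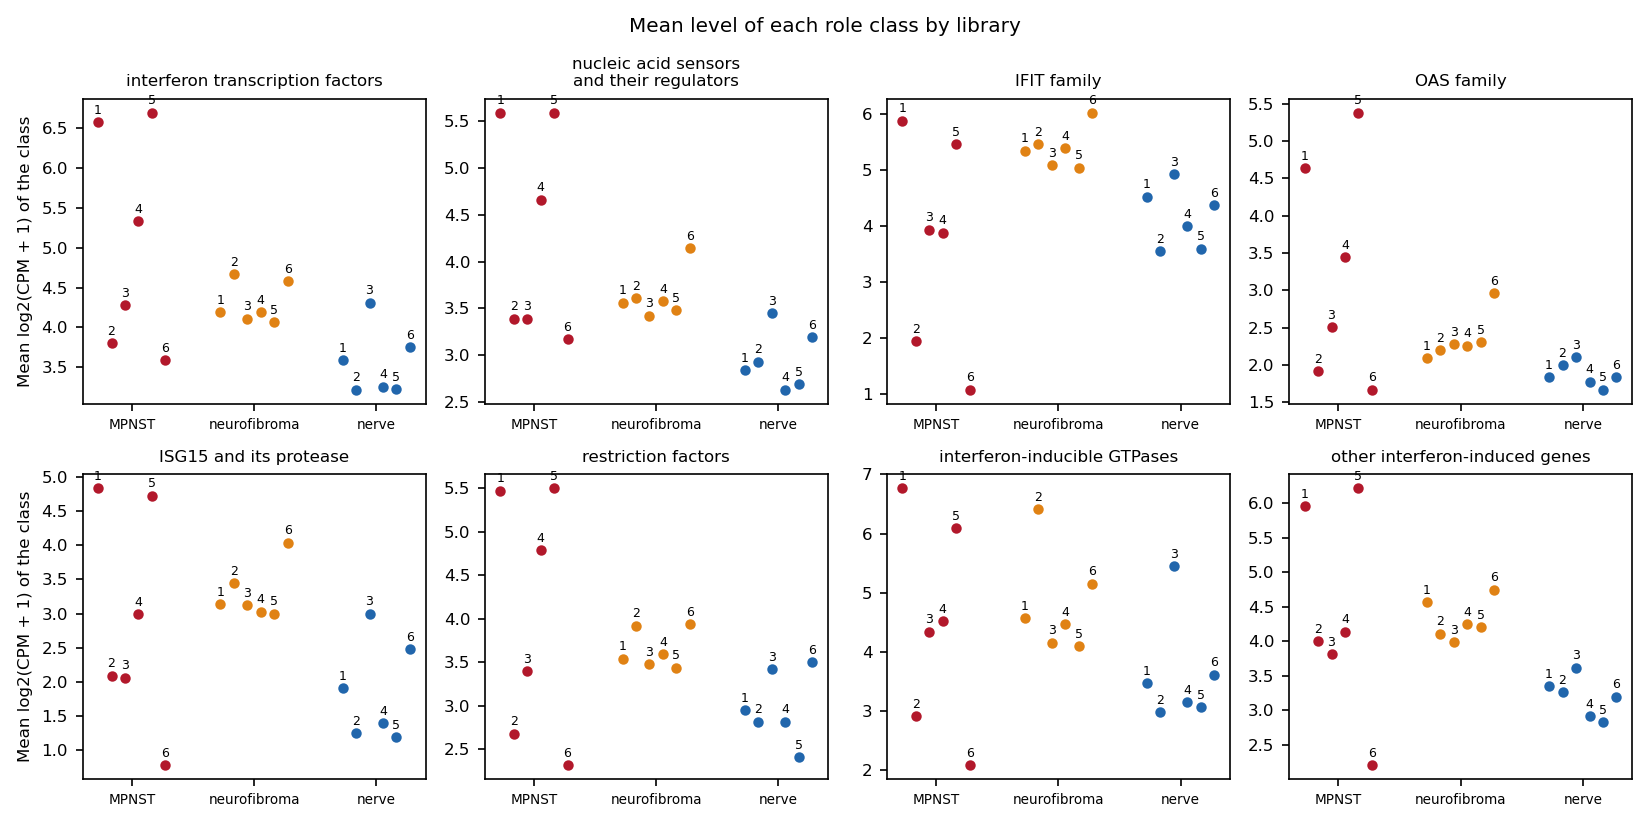
Mean log2(CPM + 1) of the genes of each role class (panels) in each library (points with library number), in MPNST, neurofibroma and nerve. MPNST libraries 1 and 5 top their group in all 8 panels, MPNST 2 and 6 are the lowest MPNST for IFIT genes, and neurofibroma 2 and nerve 3 stand above their groups for the GTPases.

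Markers of macrophages, conventional dendritic cells and T cells were high in MPNST 1 and 5, the MPNST with the highest levels of these genes. Macrophage markers (8 genes) summed to 134 to 2655 CPM in MPNST, 150 to 295 CPM in neurofibroma and 65.4 to 198 CPM in nerve, with 1605, 1850.0 and 2655 CPM in MPNST 1, 4 and 5 and at most 363 CPM in the other 3 MPNST. They were called higher in 7 of 8 genes in MPNST over neurofibroma, 7 of 8 over nerve and 1 of 8 in neurofibroma over nerve. Their median log2 change in neurofibroma over nerve was 1.01, beside 0.91 for the interferon-stimulated genes. Among all genes tested, 25.3% were called higher in MPNST over neurofibroma, 27.6% over nerve and 7.94% in neurofibroma over nerve. Conventional dendritic cell markers (5 genes) summed to 121 and 192 CPM in MPNST 1 and 5, against 6.93 to 27.8 CPM in the other MPNST, 33.9 to 39.5 CPM in neurofibroma and 38.7 to 48.6 CPM in nerve. Of those tested, 2 of 4 were called higher in MPNST over neurofibroma and 1 of 4 over nerve. In neurofibroma over nerve, 0 of 3 tested rose and 1 fell (median log2 change -0.38). The sums in those 2 groups rest mainly on Flt3 (19.3 to 34.7 CPM) and Zbtb46 (11.8 to 13.7 CPM). There, Xcr1, Clec9a and Cd209a reached at most 4.04 CPM, so the sums do not show dendritic cells in those groups. T cell markers (7 genes) summed to 1.73 to 296 CPM in MPNST, with MPNST 1 highest and MPNST 5 next at 84.3 CPM, against 2.25 to 6.21 CPM in neurofibroma and 0.699 to 5.83 CPM in nerve. They were called higher in 5 of 5 tested in MPNST over neurofibroma and 2 of 2 over nerve, and none was high enough to test in neurofibroma against nerve. B and plasma cell markers reached 767 CPM in MPNST 1, against at most 12.3 CPM in neurofibroma and 8.32 CPM in nerve. They were not high in MPNST 5, where the highest of them, Cd79b, was at 6.84 CPM and Jchain at 1.87 CPM. Jchain was at 54.2 CPM in MPNST 2 and 68.1 CPM in MPNST 4. In MPNST 4 the macrophage sum lay above that of MPNST 1, though C1qa, C1qb, Cd68 and Aif1 were lower there. Its interferon-stimulated sum was 1266 CPM, under 1650.0 CPM in neurofibroma 2. By class, its transcription factors, sensors and restriction factors (211, 161 and 481 CPM) exceeded every neurofibroma library (at most 158, 106 and 270 CPM). Its IFIT genes, Isg15 with Usp18, and remaining genes lay below every one, and its OAS genes and GTPases within the range. In neurofibroma over nerve, Siglech, listed here as a marker of plasmacytoid dendritic cells, rose (adjusted p = 0.0393). It ran at 3.87 to 14 CPM in neurofibroma, highest in neurofibroma 6, and 0.738 to 6.88 CPM in nerve. Its highest nerve library was nerve 6, which also held the highest central glia markers in nerve. The other listed markers of plasmacytoid dendritic cells, Ccr9 and Klra17, were too low to be tested in neurofibroma against nerve. Their means were 0.0818 and 0.171 CPM in neurofibroma and 0.168 and 0.0938 CPM in nerve, so Siglech alone does not show these cells. Fibroblast markers (5 genes) summed to 1375 to 3024 CPM in neurofibroma and 170.0 to 1203 CPM in nerve, without overlap, and 4 of 5 rose there, beside 3 of 5 Schwann cell markers. The part of cell content in the interferon-stimulated levels was not tested.

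**Figure D5:**
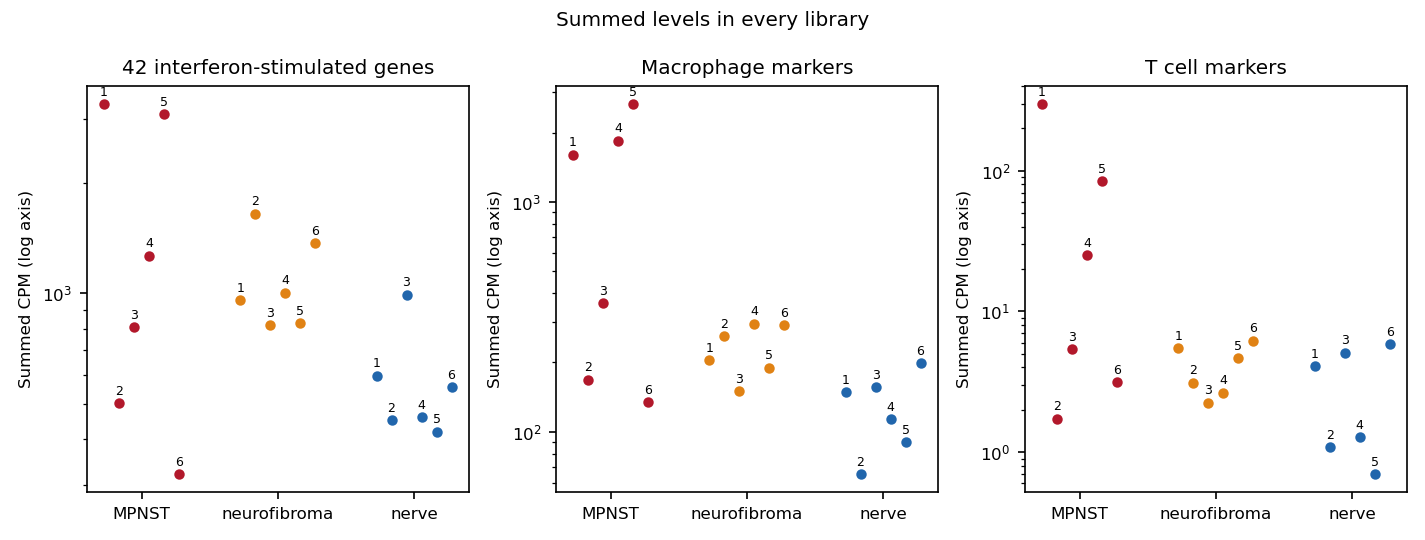
Summed CPM (log axis) of the 42 interferon-stimulated genes, 8 macrophage markers and 7 T cell markers in every library (points with library number). MPNST 1 and 5 lie high in all 3 panels, MPNST 2 and 6 lie low in all 3, and MPNST 4 lies high for macrophage markers but within the neurofibroma range for the interferon-stimulated genes.

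Of the interferons themselves almost no reads were counted. Of 20 interferon genes, 15 had 0 counts in all 18 libraries, where 3 counts, the limit a count of 0 allows, correspond to 0.127 to 0.216 CPM depending on depth. Ifng, the gene of interferon gamma, had 29 counts over the MPNST, 3 over neurofibroma and 1 over nerve, and lay at 1.31 CPM in MPNST 1 and 0.432 CPM in MPNST 5, the 2 libraries with the highest T cell marker sums, and at 0 in the other 4 MPNST. The 2 neurofibroma libraries with an Ifng count were 2 and 6, and the nerve library was nerve 3. None of the 20 was high enough to be tested, and whether interferon reached these tissues from elsewhere was not measured.

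Among 6 receptor genes, 1 rose in neurofibroma over nerve, 2 in MPNST over neurofibroma and 2 in MPNST over nerve. Those shares, 16.7%, 33.3% and 33.3%, stood beside 7.94%, 25.3% and 27.6% of all genes tested. The MPNST shares thus lie near those of all genes. Ifngr1, the ligand-binding chain of the interferon gamma receptor, ran at 19.1, 113 and 236 CPM in MPNST, 40.3, 46.0 and 57.0 CPM in neurofibroma and 30.4, 31.2 and 33.1 CPM in nerve. All neurofibroma libraries lay above all nerve libraries, a difference small in size and tight in spread (log2 change 0.57, SE 0.08, adjusted p = 0.00255). The rise of Ifngr1 in MPNST over neurofibroma (1.34, SE 0.46, adjusted p = 0.0344) was lost in 9 of 12 fits without 1 library (adjusted p up to 0.0789) and held without MPNST 2, 3 or 6. Ifnar2, a chain of the type I receptor, rose in MPNST over neurofibroma (1.18, SE 0.38, adjusted p = 0.0251, lost without MPNST 2 or neurofibroma 2, 3 or 5, adjusted p up to 0.0585) and over nerve (1.65, SE 0.37, adjusted p = 0.00396). Of the kinases and Stats, 0 of 6 tested were called in neurofibroma. In MPNST, 3 of 7 rose over neurofibroma, and over nerve 3 of 7 rose and 1 fell. The share that rose, 42.9%, stood beside 25.3% and 27.6% of all genes. Tyk2, a kinase of the type I receptor, rose by 1.48 (SE 0.29, adjusted p = 0.00207) over neurofibroma, and Stat4, used by T and NK cells, by 3.40 (SE 0.98, adjusted p = 0.0156). Jak1 fell by 0.94 on the log2 scale in MPNST over nerve (SE 0.32, adjusted p = 0.0312), a call lost without nerve 2, 4 or 5 (adjusted p up to 0.0576).

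Genes that sense nucleic acids and induce interferon rose in 3 of 17 in neurofibroma over nerve, 12 of 17 in MPNST over neurofibroma and 15 of 17 in MPNST over nerve. Those shares, 17.6%, 70.6% and 88.2%, stood beside 7.94%, 25.3% and 27.6% of all genes. Sting1, the adaptor of DNA sensing, ran at 5.03, 41.4 and 151 CPM in MPNST, 5.22, 8.37 and 13.2 CPM in neurofibroma and 1.54, 3.03 and 4.06 CPM in nerve. It rose without overlap in neurofibroma over nerve (1.51, SE 0.26, adjusted p = 0.00478) and in MPNST over nerve (4.31, SE 0.66, adjusted p = 0.000418). Ddx58, the helicase sensor known as RIG-I, rose in neurofibroma by 0.68 (SE 0.15, adjusted p = 0.0138). Cgas, the DNA sensor upstream of Sting1, ran at 0.93, 8.86 and 22.7 CPM in MPNST, 0.972, 1.46 and 2.09 CPM in neurofibroma and 0.35, 0.805 and 1.54 CPM in nerve. All MPNST but MPNST 2 lay above every neurofibroma library, including MPNST 6 at 8.59 CPM, and Cgas rose by 2.64 over neurofibroma (SE 0.46, adjusted p = 0.00105). Ikbke, a kinase that activates interferon regulatory factors, rose by 3.41 over neurofibroma (SE 0.59, adjusted p = 0.001).

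Of 9 feedback inhibitors, 1 fell in neurofibroma over nerve and 6 rose in MPNST over each of neurofibroma and nerve. The share that rose, 66.7%, stood beside 25.3% and 27.6% of all genes. Ptpn1, a phosphatase that acts on Jak2 and Tyk2, ran at 55.4, 95.2 and 126 CPM in MPNST, 30.2, 31.1 and 32.7 CPM in neurofibroma and 22.7, 26.1 and 31.3 CPM in nerve. All 6 MPNST lay above both other groups, MPNST 6 at 103 CPM included, with a log2 change of 1.82 over neurofibroma (SE 0.19, adjusted p = 3.96e-05). Ptpn2, a related phosphatase, rose by 1.37 (SE 0.25, adjusted p = 0.00141). Cish, an inhibitor of cytokine receptors, fell in neurofibroma by 1.10 on the log2 scale (SE 0.20, adjusted p = 0.00595), at 3.79, 5.15 and 6.23 CPM in neurofibroma and 6.99, 10.4 and 15.1 CPM in nerve, without overlap. Of 46 other interferon-stimulated genes, 13 of 42 tested (31.0%, beside 7.94% of all genes) were higher and 0 lower in neurofibroma over nerve, with a median log2 change of 0.74. In MPNST over neurofibroma 21 of 46 (45.7%, beside 25.3% of all genes) were higher and 1 lower, with a median of 1.34, so their share of calls stood further above all genes than the 28.6% of the 42 genes did, a difference that was not tested. In MPNST over nerve 27 of 43 (62.8%, beside 27.6% of all genes) were higher and 1 lower, with a median of 2.14. Ifitm2, a relative of Ifitm3, rose by 0.93 (SE 0.16) in neurofibroma over nerve, 1.97 (SE 0.21) in MPNST over neurofibroma and 2.89 (SE 0.21) in MPNST over nerve. Lgals3bp, a secreted glycoprotein, rose by 0.79 (SE 0.12) in neurofibroma over nerve, and Helz2, a helicase, by 2.22 (SE 0.36) in MPNST over neurofibroma. The 1 gene that fell in both MPNST comparisons was Oas1c, at 0.772, 1.48 and 5.11 CPM in MPNST, 8.14, 9.46 and 12.1 CPM in neurofibroma and 6.74, 8.92 and 13.4 CPM in nerve, the opposite of its relatives Oas1a and Oas2.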

How the data were processed

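Polyadenylated RNA of 18 samples was sequenced from stranded libraries, per the labels' protocols. The authors deposited estimated counts per gene, 46.7% of the values not whole; the submitters' processing notes name FastQC, Salmon 1.4.0, DESeq2 and GRCm39 without their roles. Here each comparison was fitted on its 2 groups with edgeR 4.0.16 in R 4.3.3 on rounded counts (filterByExpr, TMM factors, quasi-likelihood F-test, two-sided, Benjamini-Hochberg over all genes tested). CPM uses library totals. The fits were tested on simulated counts. Of 50 genes changed by 2-fold, 32 were called in neurofibroma over nerve, 2 in MPNST over neurofibroma and 1 in MPNST over nerve. Only 200 genes were changed in each simulation, while 4176 were called higher and 2772 lower in the real MPNST over neurofibroma. The adjustment was thus stricter in the simulation, and its numbers do not give the share found in the real fits. A missing call in an MPNST comparison still does not show that a gene was unchanged. The genes, lists and alternatives were chosen with earlier results of these data known. Full values are given for the 2 called genes of smallest p per role class and comparison, or the most abundant gene where none was called, and for others as examples. Sample numbers only name samples. The comparisons share samples, so their results are not independent.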

Additional observations from a re-analysis of the deposited data

Results flagged for a closer look

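In 13 of 69 sets of 6 libraries examined, the highest or lowest library lay further from the rest than Dixon's 95% critical value allows. For independent sets of normally spread values that would be about 1 in 20. These sets share libraries and their genes moved together, so the flags are not independent and that rate does not apply. Neurofibroma 6 was the high library for Irf7 (15.9 CPM, next 9.42), Dhx58 (6.40 CPM, next 4.02), Ifit1 (69.8 CPM, next 40.6), Oasl2 (83.3 CPM, next 50.8) and Rtp4 (15.5 CPM, next 11.3). Nerve 3 was the high library for Irf9 (27.8 CPM, next 18.3), Samhd1 (49.3 CPM, next 33.3), Irgm1 (39.9 CPM, next 14.9) and Ifi47 (19.1 CPM, next 4.91). Neurofibroma 2 was high for Irgm1 (59.6 CPM, next 24.8). Oas2 stood apart in MPNST 5 (107 CPM, next 26.1) and in nerve 6 (2.68 CPM, next 1.42). Isg20 was low in neurofibroma 3 (1.33 CPM, next 2.25).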

How the results depend on the processing

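The 18 calls of neurofibroma over nerve became 0 in one fit of all 18 samples and 0 against a log2 change of 1 (glmTreat), and ran from 10 to 28 without 1 library. The 12 of MPNST over neurofibroma became 24 with limma-voom weights, 2 with glmTreat, 23 without MPNST 2 and 6, 25 without MPNST 2, 3 and 6 and 3 without MPNST 1 and 5 (with 8 called lower, against 0), and ran from 8 to 23 without 1 library. The 24 of MPNST over nerve became 14 with glmTreat, 37 without MPNST 2, 3 and 6 and 13 without MPNST 1 and 5, and ran from 19 to 31 without 1 library. The cause of these shifts was not tested. Leaving out MPNST 1 and 5 and the fits by column run were chosen after seeing the data. With the 2 runs of table columns as a term the calls were 16, 12 and 24. Fits on each run alone gave 0 and 0 calls in neurofibroma over nerve (11 and 29 at an unadjusted p under 0.05 in edgeR), 13 and 0 in MPNST over neurofibroma (20 and 2 at that p) and 17 and 0 in MPNST over nerve (25 and 11), on 3 libraries a group; no label names these runs a batch. Other normalisations, count filters, DESeq2 and the robust fit stayed within 1.5 times, and no setting but that without MPNST 1 and 5 called a gene lower. No paired analysis was possible because the sample numbers only name samples. Depth limits the genes near the floor, such as the interferons and, in neurofibroma over nerve, Oas3; the library totals of the 3 groups overlapped.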
